A study of Rattus norvegicus with 9 samples.

Results

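The genes that make, sense and clear extracellular adenosine were followed in the superior mesenteric artery (SMA), the vessel that feeds most of the small intestine, before and after ischemia. They were chosen by name and number 9 of the 37203 gene symbols in the table: the receptors Adora1, Adora2a, Adora2b and Adora3, the ectonucleotidases Entpd1 and Nt5e, the clearing enzymes Ada and Adk, and the transporter Slc29a1. The arteries came from 8-week-old Sprague-Dawley rats without any stated genetic change, 3 of them normal, 3 at an early stage (1 h) and 3 at a late stage (4 h) of ischemia. The ischemia was brought about by bleeding the animals through the right femoral artery under pentobarbital anaesthesia. The series' design text gives 3 rats per group, but the study's methods can also be read as 3 individuals under all conditions, and the sample titles reuse the numbers 1 to 3 in each group. The libraries were treated as 9 separate rats, on which every n and p-value below rests. Whether normal rats had the anaesthesia and the catheter is not given in the sources used here. To judge the tissue, 12 smooth muscle markers were summed. All 12 were detected, and their sum ran from 11886 to 73394 CPM (counts scaled to a common library size, with sizes adjusted by the TMM method). The lowest was normal replicate 1, against 51513 and 52898 CPM in normal replicates 2 and 3. The sum was 13716 to 50480 CPM at 1 h and 26048 to 73394 CPM at 4 h. Normal replicate 1 also had the highest summed Schwann cell (4386 CPM) and adipocyte (2800 CPM) markers. The part of this make-up in the values below was not tested.

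Adenosine builds up outside cells when ATP leaves stressed or hypoxic cells. Entpd1, also called CD39, cuts ATP and ADP to AMP, and Nt5e, also called CD73, cuts AMP to adenosine. The receptors coded by Adora1 and Adora3 couple to inhibitory G proteins, whereas those coded by Adora2a and Adora2b raise cAMP and relax arterial smooth muscle. The Adora1 receptor is also known on sympathetic nerve endings, where it restrains the release of noradrenaline. Slc29a1 (ENT1) carries adenosine across the membrane, Adk returns it to AMP and Ada turns it into inosine.

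Promoter sequence is shown for Nt5e and Adora2b, which were lower in every rat at 4 h than in every normal rat, and for Adora1, the member that varied most between libraries. Each line gives the 250 bases before the gene's start, from RefSeq on GRCr8, with matches to the GC box GGGCGG on either strand in capitals. Nt5e lies at chr8:98150675-98150924 (plus strand), Adora2b at chr10:47439462-47439711 (plus strand) and Adora1 at chr13:48246832-48247081 (minus strand).
Nt5e: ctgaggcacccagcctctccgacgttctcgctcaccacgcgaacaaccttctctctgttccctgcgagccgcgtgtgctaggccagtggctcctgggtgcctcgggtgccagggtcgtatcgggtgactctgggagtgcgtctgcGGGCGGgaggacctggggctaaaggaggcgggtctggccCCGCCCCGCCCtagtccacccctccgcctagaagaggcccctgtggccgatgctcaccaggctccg
Adora2b: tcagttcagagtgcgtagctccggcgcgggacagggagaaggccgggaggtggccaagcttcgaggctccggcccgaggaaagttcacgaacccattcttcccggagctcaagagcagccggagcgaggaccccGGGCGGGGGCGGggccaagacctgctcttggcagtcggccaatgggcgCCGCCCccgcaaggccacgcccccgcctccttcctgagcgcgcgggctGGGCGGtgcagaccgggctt
Adora1: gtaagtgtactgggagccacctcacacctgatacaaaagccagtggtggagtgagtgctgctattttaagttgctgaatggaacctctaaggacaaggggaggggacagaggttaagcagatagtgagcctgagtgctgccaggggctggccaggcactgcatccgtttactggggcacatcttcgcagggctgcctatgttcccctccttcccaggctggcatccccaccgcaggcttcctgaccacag
The Nt5e window held 3 GC boxes and was 68.8% G or C, that of Adora2b held 4 and was 71.2% G or C, and that of Adora1 held 0 and was 56.8% G or C. The median over all 33469 promoters was 51.2%. Of the 8 members with a promoter in that table, 5 held a GC box (Adora2b, Nt5e, Ada, Adk and Slc29a1), against 30.5% of all promoters. The cAMP response element TGACGTCA, its first 5 letters TGACG and the ACGTG form of the hypoxia response core were in 0 of the 8 windows on either strand. They were in 1.59%, 18.2% and 16.6% of all promoters, and every TGACGTCA is also counted as a TGACG. These letters are absent from these windows only, which says nothing of the factors that read them. The GCGTG form of the hypoxia response core was not searched. The printed Nt5e and Adora2b windows hold GCGTG or its reverse complement CACGC.

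Total counts ran from 13114273 to 15504240 per library, and 12.1 to 17.9 counts stood behind 1 CPM after scaling. Of the 9 members, 8 had enough counts to be tested, and the ninth, Adora3, had 0 counts in all 9 libraries. A count of 0 allows up to 0.168 to 0.249 CPM per library (3 counts, counting error only), but only of reads that the counting would assign to Adora3. On GRCr8 it shares 3645 bases with the protein-coding gene Tmigd3, and how shared reads were assigned is not given in the sources used here. The libraries differed strongly in sympathetic nerve transcripts. The nerve score, the mean log2 CPM of 24 nerve markers such as Dbh and Th, was 7.75 and 7.76 in replicates 1 and 3 at 1 h and 7.70 in replicate 3 at 4 h. It ran from -0.49 to 4.65 in the other 6 libraries. Summed Schwann cell markers did not follow the score, at 1234 to 1904 CPM in the 3 libraries and 259 to 4386 CPM in the other 6. Whether the nerve transcripts came from nerve fibres or nerve cell bodies was not tested. Summed nerve markers ran from 59.0 to 795 CPM in normal rats, from 1188 to 11082 CPM at 1 h and from 72.1 to 10915 CPM at 4 h, and 0 of the 24 were at 0 in all libraries, although Dbh, the defining enzyme of noradrenaline synthesis, had 0 counts in normal replicate 2. Summed mast cell markers were highest in the same 3 libraries, at 111 to 137 CPM against 14.6 to 60.1 CPM in the other 6, with 4 of the 11 markers tested and 1 at 0 in all libraries. Of the 4 tested, only 2 had a log2 fold change above 0 at 1 h and 1 at 4 h. Their medians were -0.27 and -0.23, so the sum does not stand for the whole list. Members that moved with these libraries are given with and without them. In bulk tissue, fewer cells of a type and less RNA per cell cannot be told apart.

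Nt5e, which makes adenosine from AMP, was the member with the smallest p-value. It was at 12.4, 23.6 and 20.1 CPM in normal replicates 1 to 3, at 7.43, 17.4 and 9.89 CPM at 1 h and at 6.28, 8.87 and 7.0 CPM at 4 h. The rats at 4 h all lay below the normal rats, while the rats at 1 h overlapped both other groups. The means were 18.7 ± 5.73 CPM in normal rats and 7.38 ± 1.34 CPM at 4 h (SD, n = 3 each). On the log2 scale this was a difference of -1.34 (SE 0.38), with an adjusted p = 0.210 by edgeR's quasi-likelihood test over 15482 genes. On a linear scale the level at 4 h was 0.396 of normal, with a 95% interval of 0.217 to 0.720. By unadjusted p (0.00711) it stood at place 521 of the 15482 genes, so it did not pass the threshold over all genes. In the 17 alternative fits its log2 fold change ran from -1.56 to -1.14 and its adjusted p from 0.0519 to 0.471, and the unadjusted p was under 0.05 in all 17. Without the 3 nerve-rich libraries the value was -1.29 (SE 0.38), and with the nerve score as a covariate it was -1.26 (SE 0.34).

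At 1 h the Nt5e mean was 11.6 ± 5.22 CPM, and the log2 fold change against normal was -0.69 (SE 0.37, adjusted p = 0.343). Replicate 2, at 17.4 CPM, was the only library at 1 h within the normal range. Without the nerve-rich libraries that replicate alone stands for 1 h, and the value was -0.09 (SE 0.46, assuming that a lone library varies like the other groups). Endothelial genes also tended low, at both times. At 4 h 1 of the 13 tested was above 0, and their median log2 fold change was -0.51. At 1 h 3 were above 0, with a median of -0.42. At each time 3 had an unadjusted p under 0.05, all lower, against 8.67% of all genes lower at 1 h and 7.35% at 4 h. Their summed level was 1102 to 2001 CPM in normal rats, 940 to 1564 CPM at 1 h and 948 to 1278 CPM at 4 h. Its part in the lower Nt5e values was not tested. In the GRCr8 annotation the whole span of Nt5e lies within that of Snx14, a sorting nexin gene, and counting by strand is not stated. Snx14 had a log2 fold change of -0.09 at 4 h (SE 0.28, adjusted p = 0.919).

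Entpd1, the step before Nt5e, was low throughout, at 14 to 84 counts per library. It was at 1.68, 3.43 and 2.88 CPM in normal rats, 2.48, 5.62 and 0.860 CPM at 1 h and 5.04, 3.15 and 1.85 CPM at 4 h. The 3 groups overlapped. Against normal, the log2 fold change was 0.16 at 1 h (SE 0.67, adjusted p = 0.911) and 0.33 at 4 h (SE 0.67, adjusted p = 0.869), with 95% intervals of 0.385 to 3.26 and 0.431 to 3.66 on the fold scale. These intervals hold both a fall to below 0.5 of normal and a rise above 3-fold. Entpd1 tended low in the nerve-rich libraries, at 0.860 to 2.48 CPM against 1.68 to 5.62 CPM in the other 6. Its Pearson correlation over the libraries was -0.62 with the nerve score. It was 0.87 with summed smooth muscle markers and -0.83 with summed lymphocyte markers. These are given without a p, and the part of each was not tested. Once the fit included the nerve score, Entpd1 stood at 0.96 at 1 h (SE 0.61) and 0.36 at 4 h (SE 0.53). Leaving out the 3 nerve-rich libraries gave 0.63 at 4 h (SE 0.48). At 1 h it gave 1.08, which rests on replicate 2 alone, the highest library at 5.62 CPM.

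**Figure D1:**
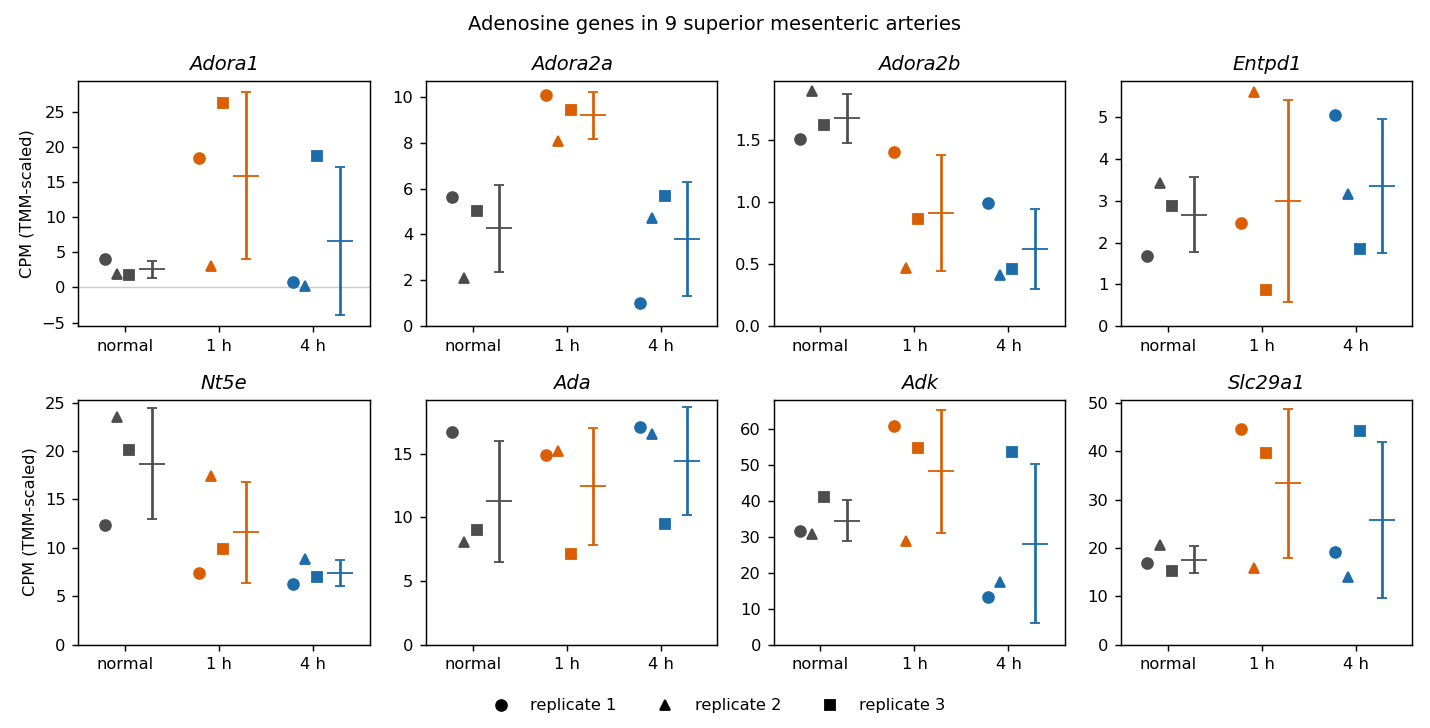
Each panel plots 1 of the 8 members with counts, its level in CPM (linear axis) in the 9 arteries, by group and with the replicate as the symbol; bars beside the points are the group mean ± SD (n = 3), and the bar of Adora1 at 4 h runs below 0 because its SD exceeds its mean. Nt5e and Adora2b at 4 h lie below all normal rats, and Adora1, Adk and Slc29a1 have 2 high libraries at 1 h and 1 at 4 h.

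Among the receptors, Adora2b, whose receptor raises cAMP at high adenosine, was lower in every ischemic rat than in every normal rat. It was at 1.51, 1.90 and 1.62 CPM in normal rats, 1.40, 0.468 and 0.860 CPM at 1 h and 0.992, 0.415 and 0.462 CPM at 4 h. These are low counts: normal replicates held 27, 26 and 22 reads, those at 1 h held 21, 7 and 14, and those at 4 h held 12, 5 and 7. The lowest, 5 reads, has an exact Poisson 95% interval of 0.135 to 0.967 CPM, and the highest normal value one of 1.24 to 2.78 CPM. At 1 h the groups were separated by a margin smaller than this counting error, since replicate 1 had an interval of 0.870 to 2.15 CPM.

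The mean of Adora2b went from 1.68 ± 0.198 CPM in normal rats to 0.911 ± 0.470 CPM at 1 h and 0.623 ± 0.321 CPM at 4 h. On the log2 scale these differences were -0.87 at 1 h (SE 0.54, adjusted p = 0.388) and -1.42 at 4 h (SE 0.55, adjusted p = 0.346, unadjusted p = 0.0322). With the nerve score added as a covariate, the value at 4 h was -1.42 (SE 0.55), and without the 3 nerve-rich libraries it was -1.23 (SE 0.66). In the 17 alternative fits it ran from -1.94 to -1.20 at 4 h, its unadjusted p was under 0.05 in 12 of them, and its adjusted p ran from 0.246 to 0.579.

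Adora2a codes for the other receptor that raises cAMP but had a different profile. It was at 5.65, 2.12 and 5.02 CPM in normal rats, 10.1, 8.09 and 9.46 CPM at 1 h and 0.992, 4.73 and 5.68 CPM at 4 h. The 1 h libraries lay above all normal and all 4 h libraries, and normal and 4 h overlapped. The spread was smallest at 1 h, where the mean was 9.22 ± 1.03 CPM against 4.26 ± 1.89 CPM in normal rats. Its log2 fold change was 1.11 at 1 h (SE 0.60, adjusted p = 0.347) and -0.17 at 4 h (SE 0.60, adjusted p = 0.933), and that of 4 h against 1 h was -1.27 (SE 0.61, adjusted p = 0.856, unadjusted p = 0.0682). Adora2a did not separate the 3 nerve-rich libraries, which were at 5.68 to 10.1 CPM, from replicate 2 at 1 h, at 8.09 CPM. Even so, its Pearson correlation with the nerve score over the libraries was 0.80, against 0.76 for Slc29a1. With the nerve score added as a covariate, the value at 1 h was 0.46 (SE 0.58), and without the 3 libraries it was 0.94 (SE 0.88).

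Because gene length cancels when 1 pair of genes is compared between libraries, the reads of Adora2a were divided by those of Adora2b. The ratio was 3.74, 1.12 and 3.09 for normal replicates, 7.19, 17.3 and 11 at 1 h and 1, 11.4 and 12.3 at 4 h. All rats at 1 h and replicates 2 and 3 at 4 h had a higher ratio than any normal rat, and replicate 1 at 4 h, with 12 reads of each gene, had the lowest of all. At 1 h this separation follows from the values above, since Adora2a was higher and Adora2b lower in every rat than in every normal rat. The ratios of 17.3, 11.4 and 12.3 rest on 7, 5 and 7 reads of Adora2b. The ratio is given without a test or a counting error.

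Adora1, the gene of the inhibitory receptor known from nerve endings, varied most. It was at 4.03, 1.90 and 1.85 CPM in normal rats, 18.5, 3.01 and 26.4 CPM at 1 h and 0.827, 0.249 and 18.8 CPM at 4 h. The 3 nerve-rich libraries were at 18.5 to 26.4 CPM and the other 6 at 0.249 to 4.03 CPM. Against normal, the log2 fold change was 2.61 at 1 h (SE 1.41, adjusted p = 0.342) and 1.35 at 4 h (SE 1.36, adjusted p = 0.696). With the nerve score as a covariate both turned to the other side of 0, at -0.34 (SE 0.88) and -0.66 (SE 0.77). Without the 3 nerve-rich libraries the values were 0.24 at 1 h (SE 0.82) and -2.22 at 4 h (SE 0.75, unadjusted p = 0.0259, adjusted p = 0.388). Leaving out replicate 3 at 4 h alone gave -2.26 at 4 h (SE 1.01), and -4.87 for 4 h against 1 h (SE 1.09, adjusted p = 0.134) in place of -1.26 (SE 1.34, adjusted p = 0.856). That -4.87 sets 4 h libraries poor in nerve transcripts against a 1 h group that keeps its nerve-rich libraries. With the nerve score as a covariate, 4 h against 1 h was -0.32 (SE 0.74). The 2 remaining libraries at 4 h held 10 and 3 reads of Adora1, against 25 to 72 in normal rats. In the GRCr8 annotation Adora1 overlaps Mybph, which had at most 33 reads in a library.

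Slc29a1, the equilibrative adenosine transporter, followed the same libraries. It was at 16.9, 20.6 and 15.1 CPM in normal rats, 44.7, 15.8 and 39.6 CPM at 1 h and 19.2, 14 and 44.2 CPM at 4 h. The nerve-rich libraries lay between 39.6 and 44.7 CPM, and the other 6 between 14 and 20.6 CPM whatever their group. Log2 fold changes against normal were 0.93 at 1 h (SE 0.50, adjusted p = 0.341) and 0.56 at 4 h (SE 0.50, adjusted p = 0.659). Without the 3 libraries these were -0.13 (SE 0.32) and -0.06 (SE 0.25).

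Adk, which removes adenosine by phosphorylation, was at 31.7, 30.7 and 41.0 CPM in normal rats, 60.9, 28.7 and 54.7 CPM at 1 h and 13.3, 17.4 and 53.5 CPM at 4 h. It too was high in the nerve-rich libraries, at 53.5 to 60.9 CPM, but the other 6 libraries were not level: replicates 1 and 2 at 4 h were the lowest of the 9. The log2 fold change was 0.48 at 1 h (SE 0.52, adjusted p = 0.623) and -0.29 at 4 h (SE 0.52, adjusted p = 0.842). With the nerve score added as a covariate, the values were -0.51 (SE 0.33) and -0.67 (SE 0.27, unadjusted p = 0.0363, adjusted p = 0.265), and without the 3 libraries they were -0.25 (SE 0.32) and -1.15 (SE 0.26, unadjusted p = 0.00489, adjusted p = 0.280). Summed mast cell markers were high in the same libraries, although of the 4 tested only 2 had a log2 fold change above 0 at 1 h. The parts of nerve and mast cell transcripts in the values of Adora1, Slc29a1 and Adk cannot be told apart here. They were not tested beyond these fits. Part of the annotated span of Adk overlaps Ap3m1, whose log2 fold change at 4 h was -0.33 (SE 0.34).

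**Figure D2:**
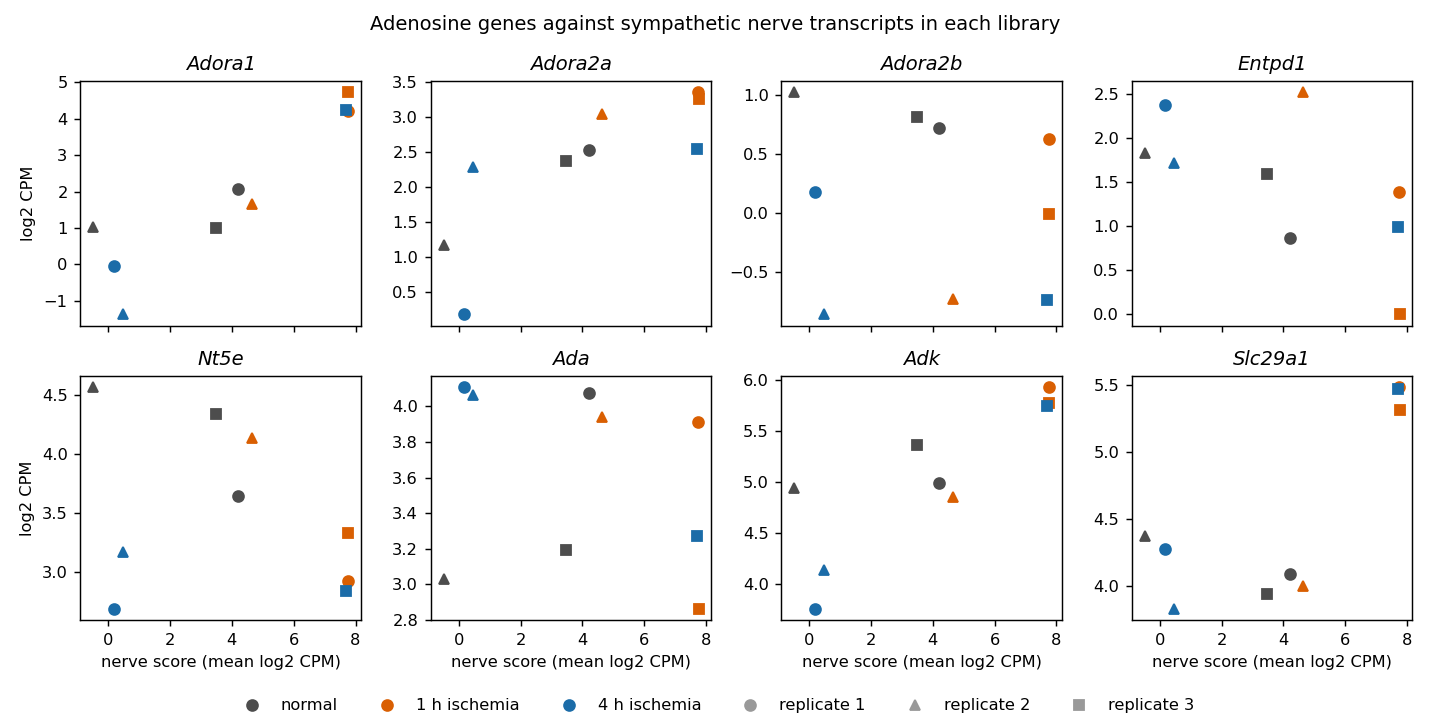
Log2 CPM of each member (vertical axis) against the nerve score of the same library (horizontal axis, mean log2 CPM of 24 nerve markers), with colour for the group and symbol for the replicate. Adora1, Adk and Slc29a1 have their 3 highest libraries at nerve scores of 7.70 to 7.76, and Nt5e and Adora2b do not.

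Ada, which deaminates adenosine, overlapped between all groups. It was at 16.7, 8.03 and 9.01 CPM in normal rats, 14.9, 15.2 and 7.13 CPM at 1 h and 17.1, 16.6 and 9.51 CPM at 4 h. Each group held both high and low libraries. The log2 fold change was 0.14 at 1 h (SE 0.41, adjusted p = 0.869) and 0.36 at 4 h (SE 0.41, adjusted p = 0.744), and the 95% intervals on the fold scale were 0.573 to 2.13 and 0.663 to 2.47. The ratio of Adk to Ada reads was 1.90, 3.82 and 4.55 for normal replicates, 4.08, 1.89 and 7.67 at 1 h and 0.778, 1.05 and 5.62 at 4 h. Replicates 1 and 2 at 4 h had the lowest ratios of the 9 libraries.

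Over the early stage, 1 h against normal, 0 of the 8 members tested were called by edgeR, a call being a fold change over 1.5 at an adjusted p under 0.05. None, 0 of 8, had an unadjusted p under 0.05, and DESeq2 called 0, with Adora1 alone (1 member) under an unadjusted 0.05. DESeq2 called 4.12% of the genes to which it gave an adjusted p, and 13.9% passed an unadjusted 0.05 by it. By edgeR 0.0581% of all genes were called, and 16.7% passed an unadjusted 0.05, 7.98% higher and 8.67% lower. Adora2a (higher) and Adora2b (lower), 2 members, had groups without overlap, against 26.3% of all genes, 12.8% higher and 13.5% lower. Log2 fold changes were above 0 for 6 members and below 0 for 2, against 50.6% of all genes below 0, and their median was 0.32 against -0.0076 over all genes.

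In the late stage, 4 h against normal, 0 members were called by edgeR and 2 had an unadjusted p under 0.05 (Nt5e and Adora2b), as they did in DESeq2, which also called 0 (3.35% and, at an unadjusted 0.05, 10.2% of all genes by DESeq2). By edgeR, among all genes 0.0904% were called, and 12.4% passed an unadjusted 0.05, 5.07% higher and 7.35% lower. Nt5e and Adora2b also had no overlap between groups, both lower, against 18.7% of all genes, 7.93% higher and 10.8% lower. Of the members 4 were above 0 and 4 below, against 47.7% of all genes below 0, with a median of 0.08 against 0.03 over all genes. Between 4 h and 1 h, 0 members were called and 0 had an unadjusted p under 0.05 by edgeR, with 0 and 1 (Adora2a) by DESeq2, where 2.64% of all genes passed an unadjusted 0.05. Over all genes 0% were called there, and 2.58% passed an unadjusted 0.05, 1.33% higher and 1.25% lower. Adora2a, lower at 4 h, was the 1 member without overlap, against 6.24% of all genes, 3.2% higher and 3.04% lower. Log2 fold changes were below 0 for 6 of the 8 members and for 53.6% of all genes. The contrasts at 1 h and 4 h share their normal rats, so they are not independent. With 3 rats per group the 95% intervals were wide, from 0.655 to 57.2 on the fold scale for Adora1 at 1 h, so these misses do not show that levels stayed the same.

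**Figure D3:**
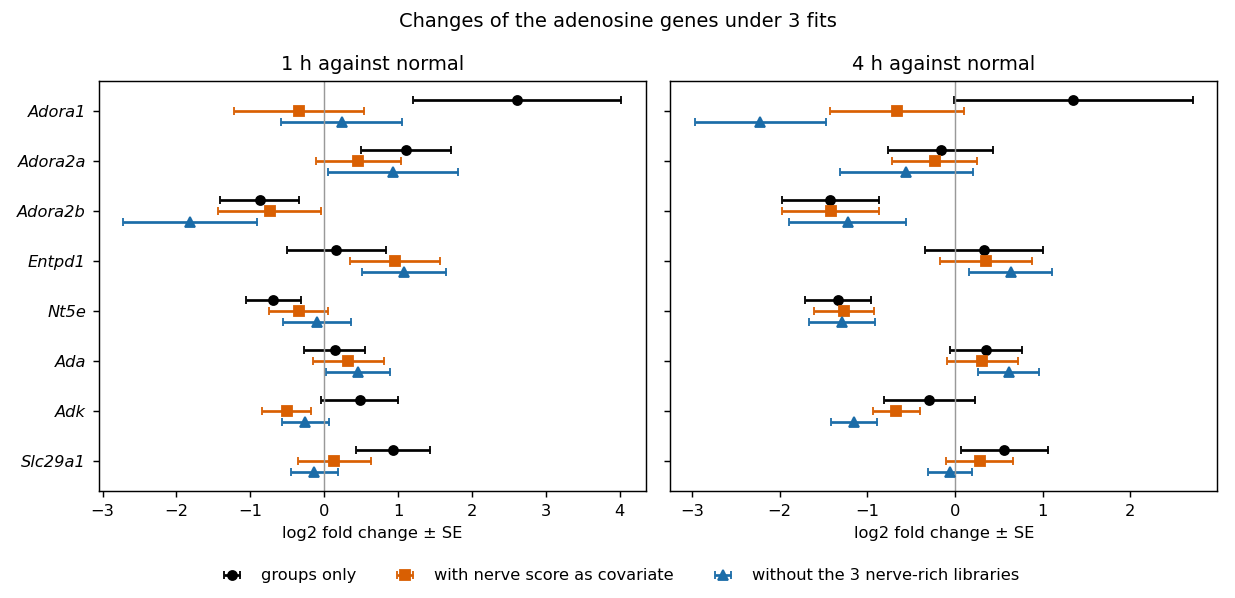
Log2 fold change ± SE (horizontal axis) of the 8 members tested at 1 h (left) and 4 h (right) against normal, from the groups alone, with the nerve score as a covariate, and without the 3 nerve-rich libraries. Nt5e and Adora2b lie below 0 in all 3 fits at 4 h, while Adora1 changes side.

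To place the members in their pathway, 112 further genes in 6 lists were examined: ATP release and extracellular breakdown, nucleoside transport, purine metabolism, P2 receptors, G proteins and adenylyl cyclases, and cAMP effectors and breakdown. Of these, 106 were tested. At 1 h edgeR called 0, and 14 (13.2%) had an unadjusted p under 0.05, 12 higher and 2 lower, against the 16.7% of all genes given above. That count fell to 3 with the nerve score as a covariate (2 higher) and to 6 without the nerve-rich libraries (5 higher), and ran from 7 (without normal replicate 3 or replicate 3 at 1 h) to 28 (without replicate 3 at 4 h) with one library left out. At 4 h edgeR called 0, and 4 (3.77%) had an unadjusted p under 0.05, 2 higher and 2 lower, against 12.4% of all genes, and with one library left out the count ran from 3 to 10. DESeq2 called 2 of 101 at 1 h (1.98%), Pde4b and Crem, and 3 of 102 at 4 h (2.94%), P2ry14, Adcy4 and Pde4b, against 4.12% and 3.35% of all genes. List medians at 1 h ran from -0.08 for purine metabolism to 1.41 for nucleoside transport, the latter over 4 genes.

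In the cAMP list, 6 of 27 genes passed an unadjusted 0.05 at 1 h, 5 higher and 1 lower, against 16.7% of all genes. At 4 h 2 of the 27 did, both higher (Pde4b and Pde8b), against 12.4% of all genes. Pde4b, a phosphodiesterase that breaks down cAMP and is itself a known cAMP-induced gene, was at 22.7, 28.1 and 16.9 CPM in normal rats, 42.9, 308 and 130 CPM at 1 h and 86.5, 74.4 and 105 CPM at 4 h. Every ischemic rat was above every normal rat, with the widest spread at 1 h. The log2 fold change was 2.83 at 1 h (SE 0.62, adjusted p = 0.180) and 1.97 at 4 h (SE 0.60, adjusted p = 0.240). By DESeq2 the adjusted p was 0.000467 at 1 h and 0.0349 at 4 h. Without the 3 nerve-rich libraries edgeR's adjusted p at 1 h was 0.0452, with a log2 fold change of 3.78 (SE 0.29) that rests on replicate 2 alone, the highest library at 308 CPM. Leaving out that replicate instead gave 1.94 at 1 h (SE 0.45, adjusted p = 0.233).

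Crem, a cAMP-responsive transcription factor gene, was at 18.9, 19.6 and 14.6 CPM in normal rats, 21.1, 86.3 and 66.5 CPM at 1 h and 29.4, 22.6 and 34.9 CPM at 4 h. It was likewise above all normal rats in every ischemic rat, although replicate 1 at 1 h exceeded the highest normal rat by little. The log2 fold change at 1 h was 1.71 (SE 0.46, adjusted p = 0.216 by edgeR and 0.0197 by DESeq2). Pde4d, another cAMP phosphodiesterase, had 0.94 at 1 h (SE 0.33, adjusted p = 0.261), and Pkig, which codes for an inhibitor of protein kinase A, had -1.24 (SE 0.38, adjusted p = 0.232). The other two higher at 1 h, Pde10a (2.85, SE 1.04, adjusted p = 0.271) and Pde8b (2.33, SE 0.89, adjusted p = 0.280), are cyclic nucleotide phosphodiesterases named here after their values were seen. With the nerve score added as a covariate, the values were 3.04 for Pde4b (SE 0.70), 1.75 for Crem (SE 0.54), 0.57 for Pde4d (SE 0.36) and -0.65 for Pkig (SE 0.28). Values under the covariate are not given here for Pde10a and Pde8b.

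Among G proteins and adenylyl cyclases, 3 of 17 passed an unadjusted 0.05 at 1 h, against 16.7% of all genes. All 3 were higher: Adcy2 (3.26, SE 1.14), Gnao1 (1.63, SE 0.59) and Gnas (1.34, SE 0.53), with adjusted p from 0.261 to 0.285 by edgeR. DESeq2 gave no p for Adcy2 at 1 h. Gnas codes for the G protein subunit through which the Adora2a and Adora2b receptors act, and Gnao1 for one abundant in neurons. All 3 were highest in the nerve-rich libraries: Gnas was at 1715, 525 and 1426 CPM at 1 h and at 611, 526 and 1465 CPM at 4 h, against 464, 467 and 520 CPM in normal rats. With the nerve score added as a covariate, the values at 1 h were 1.03 for Adcy2 (SE 0.55), 0.56 for Gnao1 (SE 0.47) and 0.45 for Gnas (SE 0.47). Adcy4, an adenylyl cyclase known from endothelium, was at 59.9, 43.9 and 27.8 CPM in normal rats, 26.0, 30.9 and 29.3 CPM at 1 h and 20.9, 21.6 and 18.2 CPM at 4 h. All rats at 4 h were below all normal rats, and the log2 fold change at 4 h was -1.12 (SE 0.27, adjusted p = 0.162 by edgeR and 0.0168 by DESeq2).

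Of the genes that release ATP or break it down, 2 of 21 had an unadjusted p under 0.05 at 1 h, both higher, and 0 did at 4 h. Among all genes the shares were 16.7% and 12.4%. Gja1, which codes for the channel protein connexin 43, was at 30.9, 16.2 and 29.0 CPM in normal rats, 39.9, 57.2 and 51.9 CPM at 1 h and 16.1, 28.2 and 30.5 CPM at 4 h. The rats at 1 h stood above all others, and the difference from normal was 0.97 in log2 units (SE 0.33, adjusted p = 0.256). Nt5c1a, a cytosolic enzyme that makes adenosine from AMP, had 3.85 at 1 h (SE 1.63, adjusted p = 0.294 by edgeR), and DESeq2 gave it no p. It was at 10.2 to 13.1 CPM in the nerve-rich libraries and at most 1.87 CPM in the other 6. Nt5c1a was at 1.10 (SE 0.92) and Gja1 at 0.69 (SE 0.34) with the nerve score as a covariate. Purine metabolism had 1 gene higher at 1 h, Ampd3 (1.39, SE 0.55, adjusted p = 0.285), which turns AMP to IMP. It had 1 lower, Aprt (-0.46, SE 0.18, adjusted p = 0.287), which salvages adenine. With the nerve score as a covariate Ampd3 was at 0.69 (SE 0.55) and Aprt at -0.29 (SE 0.20).

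Of 14 P2 receptors tested, which sense ATP and other nucleotides, 1 had an unadjusted p under 0.05 at 1 h and 1 at 4 h. Among all genes 16.7% and 12.4% did. P2rx6 at 1 h had 3.86 (SE 1.46, adjusted p = 0.278) and was at 3.44 to 5.02 CPM in the nerve-rich libraries, 0.535 CPM in replicate 2 at 1 h, and at most 0.224 CPM in the other 5, with 1.05 (SE 0.99) under the covariate. P2ry14, a receptor for UDP-sugars, was at 2.97, 7.23 and 4.80 CPM in normal rats and 0.579, 2.32 and 1.39 CPM at 4 h, without overlap (log2 fold change -1.80, SE 0.54, adjusted p = 0.232 by edgeR and 0.0411 by DESeq2). Of 4 nucleoside transporters tested, 0 had an unadjusted p under 0.05 at either time, and DESeq2 did not call one.

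**Figure D4:**
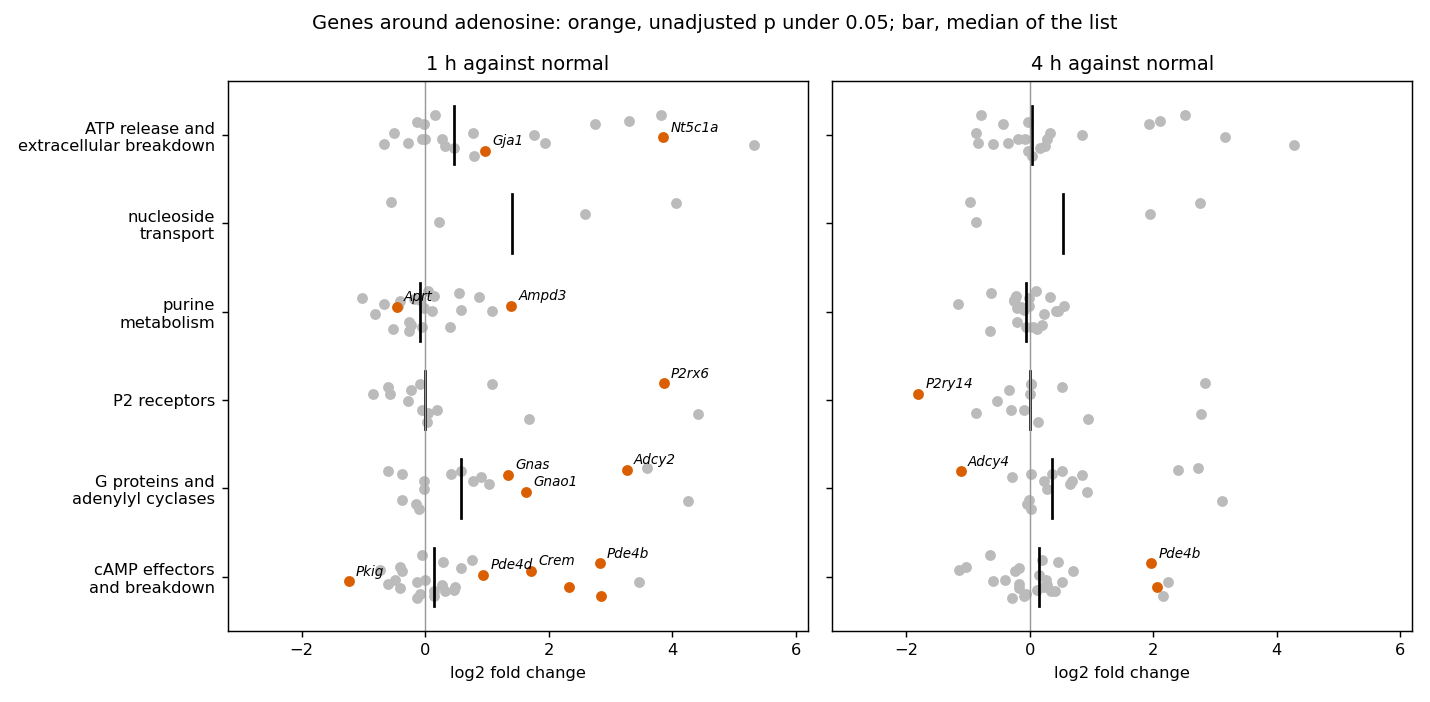
Log2 fold changes (horizontal axis) of the 106 further genes tested, by list, at 1 h (left) and 4 h (right) against normal; orange points have an unadjusted p under 0.05, those named by the rule carry their name, and the bar is the median of the list. At 1 h 12 of the orange points are higher and 2 lower (2 and 1 with the nerve score as a covariate), and Adcy4 and P2ry14 are the lower ones at 4 h.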

How the data were processed

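SMA RNA was sequenced in 9 libraries, 3 per group. The authors deposited raw counts per gene symbol, with 13156 of 37203 symbols at 0 in all libraries. The submitters' processing notes name HISAT2; the counting program, genome build, annotation and use of strand are not given in the sources used here. The study's methods also describe arrays for these samples, yet the values are whole numbers with unequal totals and were analysed as counts. Every column matched 1 sample title, and no library was a copy of another (chi-square per degree of freedom at least 29.9 for any pair).

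In R 4.3.3 with edgeR 4.0.16, genes were filtered with filterByExpr, scaled by TMM (factors 0.814 to 1.22) and tested with the quasi-likelihood F-test over all 9 libraries with group as the only term. P-values were adjusted by Benjamini-Hochberg over all 15482 genes tested, and calls needed a fold change over 1.5. The common biological coefficient of variation was 51.6%. SE is the size of the log2 fold change divided by the square root of F. Log2 CPM used a prior count of 2. DESeq2 1.42.0, other scalings and filters, a replicate block, the nerve score and each left-out library were alternatives, and leaving out the 3 nerve-rich libraries was added after seeing the data. The scripts were tested on simulated data.

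Named were all members and, per list, up to 4 genes with the smallest unadjusted p under 0.05 against normal. Members, lists and tests were chosen with earlier results of these data known. Gene names, promoters and overlaps come from RefSeq on GRCr8, which may not be the build of the counts. Intervals and floors cover counting error only where so stated. P-values take the 9 libraries as separate rats, as the series' design text gives them, although the study's methods leave room for 3 individuals.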

Additional observations from a re-analysis of the deposited data

How the results depend on the processing

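The members called numbered 0 in every contrast and alternative. Of 661 single-gene values under an alternative, 30 changed sign and 6 gained a call, 5 by DESeq2 and 1 (Pde4b at 1 h) without the nerve-rich libraries, where 1 library stands for 1 h; no gene named was called to begin with. Changed signs at 1 h were Entpd1 with the replicate block (-0.13), Adora1 (-0.34) and Adk (-0.51) with the nerve score, and Adk (-0.25) and Slc29a1 (-0.13) without the 3 nerve-rich libraries. At 4 h they were Adora1 with the replicate block (-0.33), with the nerve score (-0.66) and without the nerve-rich libraries (-2.22), and Slc29a1 without those libraries (-0.058). For 4 h against 1 h they were Entpd1 with library size alone (-0.020, or 0.22 relative to the shift of all genes given below), Entpd1 (-0.60), Ada (-0.018) and Slc29a1 (0.14) with the nerve score, and Adora2b (0.59), Entpd1 (-0.45) and Slc29a1 (0.074) without the nerve-rich libraries. The cause was not tested. Leaving out one library at a time gave, at 1 h, -0.047 to 0.54 for Ada and -0.67 to 0.59 for Entpd1. At 4 h it gave -1.16 to 0.023 for Adk, -2.26 to 1.91 for Adora1, -0.58 to 0.26 for Adora2a, -0.12 to 0.62 for Entpd1 and -0.077 to 0.86 for Slc29a1. For 4 h against 1 h it gave -0.038 to 0.44 for Ada and -0.29 to 1.00 for Entpd1.

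Over all genes, calls at 1 h were 9, with 644 by DESeq2, 4 with only the groups compared, 16 with the nerve score and 0 to 11 with one library left out. At 4 h they were 14, with 554 by DESeq2, 4 with only the groups compared, 125 with the nerve score and 1 to 14 with one library left out. Same-numbered libraries were not alike throughout: 4 of 9 correlations of their deviations from group means were over 0.1 (range -0.65 to 0.66). The pairs of replicate 2 had 0.28, 0.42 and 0.62. Of the 9 libraries, 2 were closest to their own number in both other groups. With 3 libraries per group, which also differ in nerve content, this check cannot settle whether rats were shared. With the replicate block 7 genes were called at 1 h and 7 at 4 h. With library size alone the median of all genes moved to -0.15 at 4 h and -0.24 for 4 h against 1 h, and relative to it Nt5e was at -1.34 and Adora2b at -1.48 at 4 h. The lowest counts above 0 in a library were 3 for Adora1, 5 for Adora2b, 12 for Adora2a and 14 for Entpd1.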

Other observations

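For each member tested, the 3 genes with the highest Pearson correlation of log2 CPM over the 9 libraries were listed, among 11279 or 11280 genes with a mean of at least 5 CPM. They are given without a p, because the libraries share groups, scaling and nerve content. Nt5e was most like Zfp84 (r = 0.971), Ahrr (0.959), a repressor of the aryl hydrocarbon receptor, and Cnot4 (0.949). Adora2b was closest to Tarbp2 (0.984), Rrnad1 (0.979) and Zbtb45 (0.976). Adora1 was closest to Stambpl1 (0.993), Cacng7 (0.990), a calcium channel subunit gene, and RGD1304694 (0.988). Adk was closest to Tspyl5 (0.980), Ctxn1 (0.980) and Cacna2d2 (0.974), another calcium channel subunit gene, and Slc29a1 to Lrsam1 (0.992), Vezt (0.990) and Eid2 (0.986). Adora2a was closest to Oas1b (0.960), Baalc (0.931) and Kctd1 (0.926), Entpd1 to LOC103693274 (0.984), Cobll1 (0.944) and St3gal2 (0.938), and Ada to Rapgef2 (0.886), Zbtb2 (0.882) and Ptgr2 (0.863). Ada had the lowest top correlation of the 8 members.

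Of the other marker lists, summed mast cell markers were at 40.3 to 60.1 CPM in normal rats, 25.6 to 137 CPM at 1 h and 14.6 to 115 CPM at 4 h. Macrophage markers summed to 62.3 to 251 CPM in normal rats (251 CPM in replicate 1), 125 to 258 CPM at 1 h and 49.4 to 143 CPM at 4 h. On the log2 fold scale 0 of the 10 tested were above 0 at 4 h, against 47.7% of all genes below 0. An unadjusted p under 0.05 was reached by 0 of the 10. Of the 12 smooth muscle genes, 0 were above 0 at 1 h and 12 at 4 h. An unadjusted p under 0.05 was reached by 0 of them at either time.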
